A study of Mus musculus with 12 samples.

Results

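Interferon-stimulated genes and guanylate-binding proteins were described across 12 RNA libraries of the mouse thoracic aorta. The group was a set of 38 genes chosen by symbol, of the 27933 genes in the count table, and 37 of them had a row there. Mx2 had no row under that symbol. All 37 had enough counts to be tested, among 14621 tested genes. Type I-like genes (22, of which 21 were tested) and gamma-like genes (16, all tested) were kept apart. Many of these genes answer to both kinds of interferon, so the split is a convention.

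The mice were C57BL/6J, wild type (WT) or labelled alpha7-nAChR knockout (KO), the latter lacking by label the alpha7 subunit of the nicotinic acetylcholine receptor. From 5 months of age they breathed room air or nicotine vapor for 12 weeks, and the aortas were collected at 8 months. Each of the 4 groups had 3 libraries, named here by the number in their labels. Those in air were WT 8, 9 and 10 with KO 1, 2 and 7, and those in nicotine were WT 6, 11 and 12 with KO 3, 4 and 5. The labels do not say that each library is a separate mouse, so p-values measure the spread between these libraries, part of which may be technical.

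Interferons are secreted proteins that warn cells of infection. Type I interferons signal through the kinases JAK1 and TYK2 to a complex that includes STAT2 and IRF9 and binds the interferon-stimulated response element (ISRE) in promoters. Interferon gamma signals through JAK1 and JAK2, acts on promoters at the gamma-activated site (GAS) and raises IRF1, itself a factor that binds ISRE-like sequences. Type I targets include antiviral proteins that bind or degrade foreign RNA, while gamma targets include large GTPases that attack intracellular microbes and the parts that load peptides on class I molecules. In the vessel wall, endothelial cells, smooth muscle cells, fibroblasts and macrophages can all respond to both.

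The promoters of 6 genes are shown because they carry the elements through which both kinds of interferon act, and because Gbp5 and Igtp had low unadjusted p in several of the comparisons below. Each line gives the 200 bases before the transcription start, from RefSeq on build GRCm38.p6, with matches to the ISRE core (GAAANNGAAA) or to the GAS (TTCNNNGAA) in capitals, on either strand (on the reverse strand the ISRE core reads as TTTC repeats). They lie at chr4:156200819-156201018 on the minus strand (Isg15), chr19:34640689-34640888 (Ifit1), chr11:53769814-53770013 (Irf1), chr3:142620463-142620662 (Gbp2), chr3:142496734-142496933 (Gbp5) and chr11:58199356-58199555 (Igtp), all but the first on the plus strand.
Isg15: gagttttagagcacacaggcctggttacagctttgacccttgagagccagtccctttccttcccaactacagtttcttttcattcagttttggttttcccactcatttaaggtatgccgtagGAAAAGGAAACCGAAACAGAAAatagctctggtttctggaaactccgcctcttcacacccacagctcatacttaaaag
Ifit1: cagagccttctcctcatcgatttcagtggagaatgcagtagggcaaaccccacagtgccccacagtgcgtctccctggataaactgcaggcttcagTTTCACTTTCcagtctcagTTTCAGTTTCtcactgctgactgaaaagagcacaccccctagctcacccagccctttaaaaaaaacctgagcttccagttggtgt
Irf1: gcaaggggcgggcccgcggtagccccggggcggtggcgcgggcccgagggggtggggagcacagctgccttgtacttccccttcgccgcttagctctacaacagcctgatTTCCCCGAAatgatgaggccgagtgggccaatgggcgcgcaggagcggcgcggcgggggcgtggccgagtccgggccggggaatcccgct
Gbp2: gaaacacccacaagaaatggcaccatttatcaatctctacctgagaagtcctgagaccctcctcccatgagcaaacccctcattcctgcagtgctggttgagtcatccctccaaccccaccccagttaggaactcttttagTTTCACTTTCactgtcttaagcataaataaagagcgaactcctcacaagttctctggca
Gbp5: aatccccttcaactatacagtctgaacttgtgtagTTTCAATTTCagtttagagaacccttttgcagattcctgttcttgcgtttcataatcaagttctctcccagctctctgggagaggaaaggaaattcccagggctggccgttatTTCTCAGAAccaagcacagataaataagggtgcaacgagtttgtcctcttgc
Igtp: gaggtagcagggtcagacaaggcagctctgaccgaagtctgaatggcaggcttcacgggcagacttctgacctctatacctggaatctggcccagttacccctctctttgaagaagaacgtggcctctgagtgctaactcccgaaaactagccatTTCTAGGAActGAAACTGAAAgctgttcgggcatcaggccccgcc
Isg15 held 3 ISRE matches that overlap one another, and Ifit1 held 2. Irf1 held a GAS match only and Gbp2 an ISRE match only. Gbp5 and Igtp held both, without sharing bases.

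Of the 38 genes, 29 matched a RefSeq promoter window, which runs from 250 bases before to 50 after a start. An ISRE match lay in a window of 9 of 17 type I-like and 7 of 12 gamma-like genes, where 3.99% of all 27025 genes with a window hold one. A GAS match lay in a window of 4 of 17 type I-like and 5 of 12 gamma-like genes, against 9.55% of all genes. Both motifs were matched in 5 genes (Oas1a, Bst2, Gbp5, Gbp7 and Igtp), the matches sharing bases in Bst2, and neither in 9 (Irf7, Irf9, Oasl1, Oasl2, Ifi44, Xaf1, Cxcl9, Psmb9 and Tap1). The windows of Psmb9 and Tap1 share 275 bases on opposite strands. A match describes letters and is not a measured binding site.

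Library totals ran from 10240031 to 12628323 counts, and the 37 genes together took 5232 to 9160 of them. Chrna7, which encodes the alpha7 subunit, had 9 to 37 counts in WT and 8 to 28 in KO libraries, so its level does not check the genotype. The part of the gene that was deleted is not known here. The 6 smooth muscle markers, which define the tissue, summed to between 22400 and 45200 CPM (counts scaled to a common library size, with TMM factors) in each library. Macrophage, endothelial, fibroblast and adipocyte markers were present in every library. T or NK cell markers were scarce, with Ncr1 at 0 in 3 libraries and their sum at 3.18 to 10.9 CPM.

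Per library, the mean log2 CPM of the type I-like genes was 2.70, 2.64 and 2.28 for WT air 8, 9 and 10. It was 3.49, 3.03 and 2.40 for WT nicotine 6, 11 and 12, 2.75, 3.11 and 3.23 for KO air 1, 2 and 7, then 3.14, 2.95 and 2.49 for KO nicotine 3, 4 and 5. Every exposed or KO group therefore had a library within the WT air range except KO air, whose lowest library lay above WT air 8 by less than its own spread (SD 0.25, n = 3). The mean log2 CPM of the gamma-like genes was, in the same library order, 3.46, 2.92 and 2.99 (WT air), then 3.88, 4 and 3.11 (WT nicotine), then 3.36, 4.19 and 4.21 (KO air), then 3.53, 4.04 and 3.21 (KO nicotine). Each of the last 3 groups held a library inside the WT air range, namely WT nicotine 12, KO air 1 and KO nicotine 5.

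**Figure D1:**
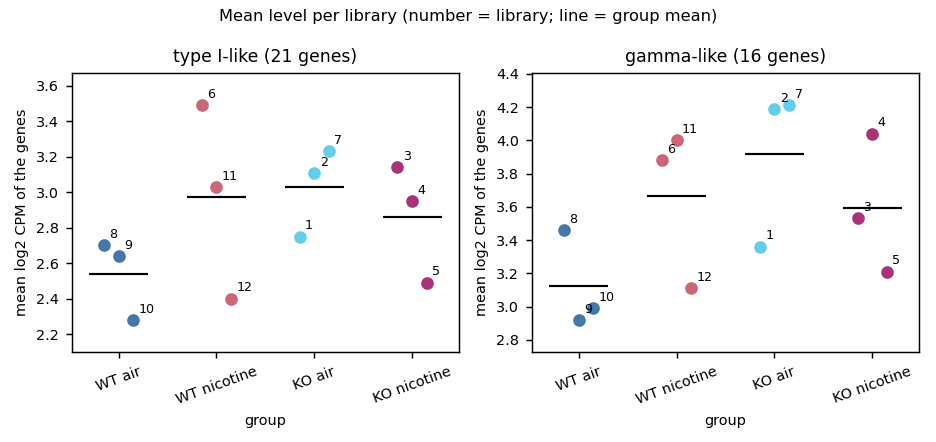
Mean log2 CPM of 21 type I-like genes (left) and 16 gamma-like genes (right) in each library, with the library number beside each point and a line at the group mean (n = 3). KO air 2 and 7 were highest for the gamma-like genes, at 4.19 and 4.21, and WT nicotine 6 was highest for the type I-like genes, at 3.49.

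The highest value of the 12 libraries lay in WT nicotine 6 for 6 of 21 type I-like genes, and the lowest lay in WT air 10 for 10 of them. For the gamma-like genes the highest value lay in KO air 2 for 7 of 16 and in KO air 7 for 5 of 16. The lowest lay in WT air 9 for 5 of 16 and in WT nicotine 12 for 5 of 16. WT nicotine 12 was thus low for gamma-like genes beside its group mates 6 and 11.

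**Figure D2:**
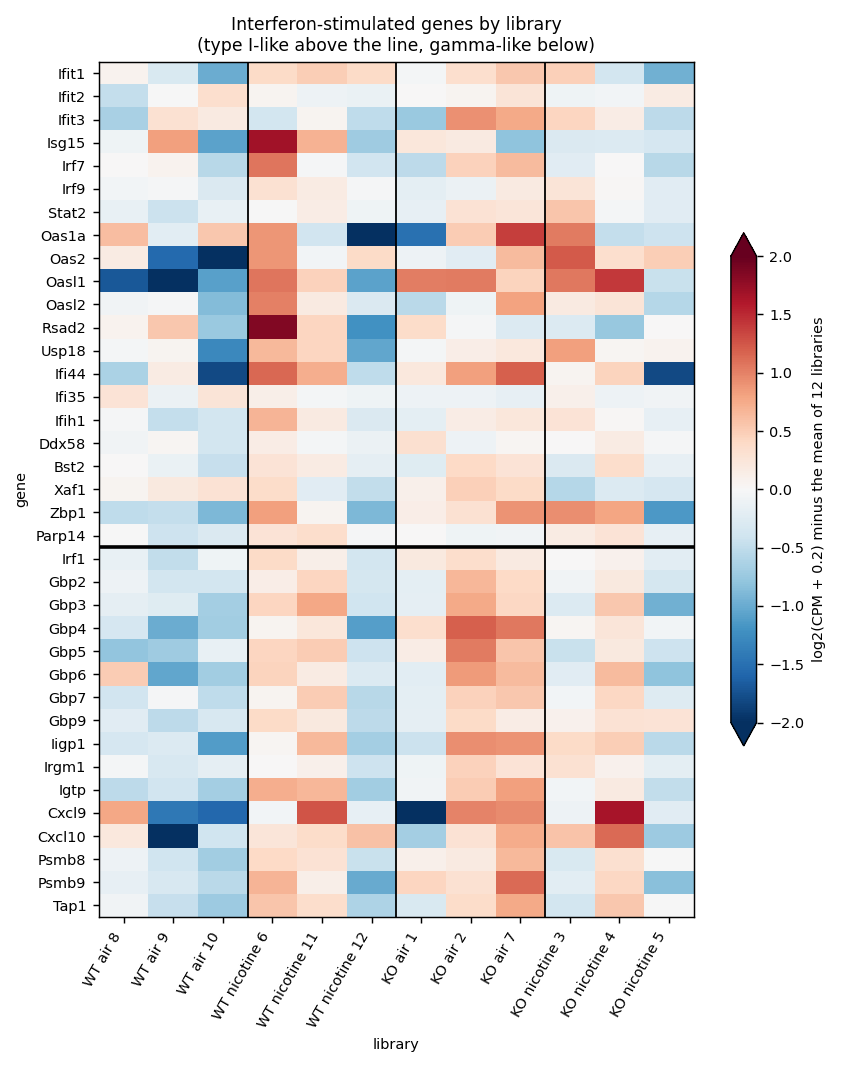
Each row is a gene and each column a library, and the colour gives log2(CPM + 0.2) minus the gene's mean over the 12 libraries (colours stop at -2 and 2). Among the gamma-like genes below the black line, KO air 2 holds the highest library for 7 of 16 and KO air 7 for 5 of 16.

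Nicotine was compared with air in WT first. All 16 gamma-like genes and 16 of 21 type I-like genes were higher in nicotine by value (log2 fold change above 0). The median was 0.50 in each set, where 49.4% of all tested genes were above 0 with a median of 0. None passed the edgeR threshold (Benjamini-Hochberg adjusted p under 0.05 over all tested genes), against 3 of 14621 genes called, or 0.0205%. At an unadjusted p under 0.05 there were 4 type I-like and 2 gamma-like genes, all higher in nicotine, where 9.84% of all tested genes reached it. DESeq2 called 0 of the 37 (0.787% of all genes), with 7 at an unadjusted p under 0.05 (10.4% of all genes). Limma voom called 0 (0.0205%), with 5 at that level (9.84%). All nicotine libraries exceeded all air libraries in 3 type I-like genes (Ifit1, Stat2 and Oasl1) and 1 gamma-like gene (Cxcl10), and lay below them in 0, where 7.12% and 6.05% of all genes did so. A share of 1 in 16 is near that background. Without WT nicotine 6 the type I-like median was 0.21, and without WT nicotine 12 the gamma-like median was 0.80.

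Of the type I-like genes, Oasl1 encodes a 2'-5'-oligoadenylate synthetase-like protein that restrains IRF7 translation. Its CPM were 0.0869, 0 and 0.242 in WT air 8, 9 and 10 and 1.77, 1.09 and 0.245 in WT nicotine 6, 11 and 12. The groups did not overlap, but WT nicotine 12 was almost level with WT air 10. The log2 fold change of 3.09 ± 0.97 (SE; edgeR adjusted p = 0.336) rests on 4 counts in all of WT air and depends on how such low counts are smoothed. Parp14, an ADP-ribosyltransferase that acts in interferon and interleukin-4 signalling, stood at 54.8, 41.4 and 44.8 CPM in WT air and 66.8, 70.1 and 54.2 CPM in WT nicotine. WT nicotine 12 lay just inside the air range, and the log2 fold change was 0.44 ± 0.15 (edgeR adjusted p = 0.362). Oas2, a synthetase of the 2'-5'-oligoadenylates that activate RNase L, stood at 2.09, 0.494 and 0.242 CPM in air and 3.54, 1.76 and 2.45 CPM in nicotine (log2 fold change 1.45 ± 0.63, edgeR adjusted p = 0.483). WT air 8 lay among the nicotine libraries for Oas2.

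Isg15, a ubiquitin-like protein joined to other proteins, was at 3.39, 6.50 and 1.61 CPM in WT air and 12.0, 5.95 and 2.12 CPM in WT nicotine. Only WT nicotine 6 was above the air range, and without it the Isg15 log2 fold change of 0.79 ± 0.57 was 0.09. Rsad2, which encodes the antiviral enzyme viperin, was at 83.5, 115 and 47.1 CPM in WT air and 288, 107 and 34.2 CPM in WT nicotine, so its nicotine libraries spanned 8.42-fold. Without WT nicotine 6 the Rsad2 log2 fold change of 0.81 ± 0.63 became -0.19, and that of Irf7, the factor that amplifies type I interferon, went from 0.50 ± 0.40 to -0.04. Ifit1, which binds RNA that lacks a host cap, was at 4.96, 3.79 and 2.26 CPM in air and 6.19, 6.70 and 6.20 CPM in nicotine, without overlap (log2 fold change 0.80 ± 0.37, edgeR adjusted p = 0.509). Its neighbours Ifit2 and Ifit3 were at -0.05 ± 0.18 and -0.27 ± 0.41, negative by less than their SE, so their direction was not settled. Of the signalling members, Stat2 was at 0.26 ± 0.21 and Irf9 at 0.28 ± 0.17. The sensor gene Ifih1 was at 0.52 ± 0.23, and Usp18, which removes ISG15 from proteins and blocks the type I receptor, was at 0.52 ± 0.47.

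**Figure D3:**
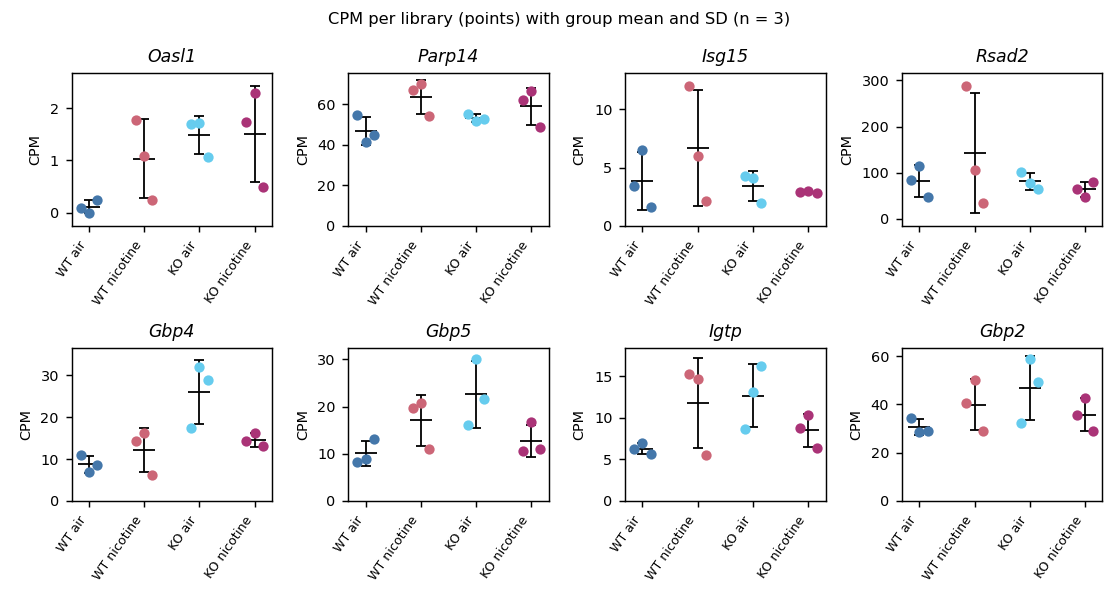
CPM of 8 genes in each library (points), with the group mean and SD (n = 3). Rsad2 and Isg15 show the wide spread of WT nicotine, up to 288 and 12.0 CPM in WT nicotine 6, and Gbp4 shows KO air at 17.4 to 31.9 CPM above every other library.

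Among gamma-like genes in WT, the immunity-related GTPase gene Igtp was at 6.26, 6.91 and 5.64 CPM in air and 15.2, 14.6 and 5.55 CPM in nicotine 6, 11 and 12. WT nicotine 6 and 11 were above every air library and WT nicotine 12 below every one. Its log2 fold change was 0.91 ± 0.35 (edgeR adjusted p = 0.416). Gbp5, a guanylate-binding protein that promotes inflammasome assembly, was at 8.35, 8.81 and 13.1 CPM in air and 19.6, 20.8 and 10.9 CPM in nicotine, with the same library inside the air range (0.76 ± 0.30, edgeR adjusted p = 0.439). Gbp2 (0.38 ± 0.23), Gbp3 (0.71 ± 0.39) and Gbp7 (0.36 ± 0.28), which lie in the same gene cluster as Gbp5, had values above 0 as well. The immunoproteasome subunit genes Psmb8 (0.51 ± 0.26) and Psmb9 (0.43 ± 0.43) and the peptide transporter gene Tap1 (0.58 ± 0.35), which neighbour each other, did so too. Irf1 was at 0.31 ± 0.18 and Irgm1, a regulator of the other immunity-related GTPases, at 0.09 ± 0.20. Single libraries moved several of these values. Without WT nicotine 6, Psmb9 was at 0.01, Irf1 at 0.15 and Tap1 at 0.36, and without WT nicotine 11, Gbp2 was at 0.19, Gbp3 at 0.44 and Gbp7 at 0.09.

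The CXCR3 ligand genes, which draw in activated T cells, were low. Cxcl10 was at 0.956, 0 and 0.564 CPM in WT air and 0.983, 1.09 and 1.31 CPM in WT nicotine, from at most 16 counts in any of these libraries. Cxcl9 was at 4.87, 0.905 and 0.806 CPM in air and 2.65, 6.87 and 2.45 CPM in nicotine, with WT air 8 among the nicotine values. Neither difference passed (1.15 ± 0.85 and 0.87 ± 0.94). Leaving out a library gave 0.57 (without WT air 9) to 1.98 (without WT air 8) for Cxcl10 and 0.23 (without WT nicotine 11) to 2.24 (without WT air 8) for Cxcl9.

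Markers of other cells moved with the WT comparison. The 10 macrophage markers with a row summed to 420 to 459 CPM in WT air and 567 to 691 CPM in WT nicotine, and no marker was at 0. A log2 fold change above 0 was found for 9 of 10. An unadjusted p under 0.05 was reached by 6, where 9.84% of all tested genes reached it. Smooth muscle markers summed to 30000 to 45200 CPM in air and 27400 to 31500 CPM in nicotine. All 6 were below 0, 3 of them at that level. Fibroblast (6 of 6), endothelial (6 of 7) and adipocyte markers (5 of 6) were above 0, with 0, 1 and 0 at that level. The 4 neutrophil markers summed to 2.78 to 12.4 CPM in air and 8.88 to 57.0 CPM in nicotine, 4 of 4 above 0 and 3 with an unadjusted p under 0.05, and WT nicotine 6 was highest. Of these, Retnlg was at 0 in 2 of the 12 libraries. The part of any of these cell types in the interferon results was not tested. In bulk tissue, fewer cells of a type and less RNA per cell cannot be told apart.

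Nicotine was then compared with air in the KO libraries. Here 13 of 16 gamma-like genes and 14 of 21 type I-like genes were below 0, with medians of -0.35 and -0.10, where the median of all tested genes was 0.01. Again 0 passed by edgeR, as in all genes (0%), and 1 type I-like and 2 gamma-like genes had an unadjusted p under 0.05, each lower in nicotine (4.58% of all tested genes reached it). DESeq2 and limma voom called 0 of the 37 (0% of all genes by either), with 3 each at an unadjusted p under 0.05 (5.32% and 4.31% of all genes). Each nicotine library lay below each air library for Xaf1, Irf1 and Gbp4 and above it for Ifi35, where 5.53% of all genes lay below and 5.1% above. The gamma-like median ran from -0.57 without KO nicotine 4 to -0.19 without KO nicotine 5, and the type I-like median from -0.24 without KO nicotine 3 to 0 without KO nicotine 5.

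Gbp4 was at 17.4, 31.9 and 28.9 CPM in KO air 1, 2 and 7 and at 14.2, 16.3 and 13.2 CPM in KO nicotine 3, 4 and 5, without overlap. The log2 fold change was -0.84 ± 0.31 (edgeR adjusted p = 0.878). Gbp5 was at 16.1, 30.1 and 21.5 CPM in KO air and 10.6, 16.7 and 10.9 CPM in KO nicotine, with KO nicotine 4 just above KO air 1 (-0.83 ± 0.30, edgeR adjusted p = 0.878). Psmb9 was at -0.83 ± 0.42 (-0.51 without KO air 7), Igtp at -0.58 ± 0.34 (-0.36 without KO air 7) and Gbp2 at -0.39 ± 0.23 (-0.19 without KO air 2). Xaf1, an antagonist of the apoptosis inhibitor XIAP, was at 4.76, 6.23 and 5.85 CPM in KO air and 2.92, 3.62 and 3.48 CPM in KO nicotine (-0.75 ± 0.28, edgeR adjusted p = 0.878). Xaf1 was also below 0 in WT, at -0.27 ± 0.27, unlike most type I-like genes. The next lowest p of that set belonged to Ifi44, an antiviral protein gene (-1.16 ± 0.82, and -0.61 without KO nicotine 5), and Irf7 (-0.53 ± 0.40), neither past the threshold. Isg15 was at -0.24 ± 0.59, with KO nicotine between 2.83 and 2.95 CPM, far narrower than WT nicotine. Cxcl9 (0.25 ± 0.91) and Cxcl10 (0.31 ± 0.80) were above 0, and both went below 0 without KO air 1 (-0.27 and -0.04) or without KO nicotine 4 (-0.67 and -0.23). The 5 skeletal muscle markers summed to 7.47 to 11.1 CPM in KO air and 7.44 to 158 CPM in KO nicotine. All 5 were above 0, 4 with an unadjusted p under 0.05, where 4.58% of all tested genes reached it. Tested T or NK cell (5 of 5), B cell (4 of 4), fibroblast (6 of 6) and neutrophil markers (3 of 4) were below 0. Adipocyte (6 of 6) and endothelial markers (5 of 7) were above 0. Macrophage markers summed to 371 to 567 CPM and 458 to 740 CPM, 8 of 10 above 0, and smooth muscle markers to 30900 to 37500 CPM and 22400 to 36700 CPM, 6 of 6 below 0. Their part was not tested.

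**Figure D4:**
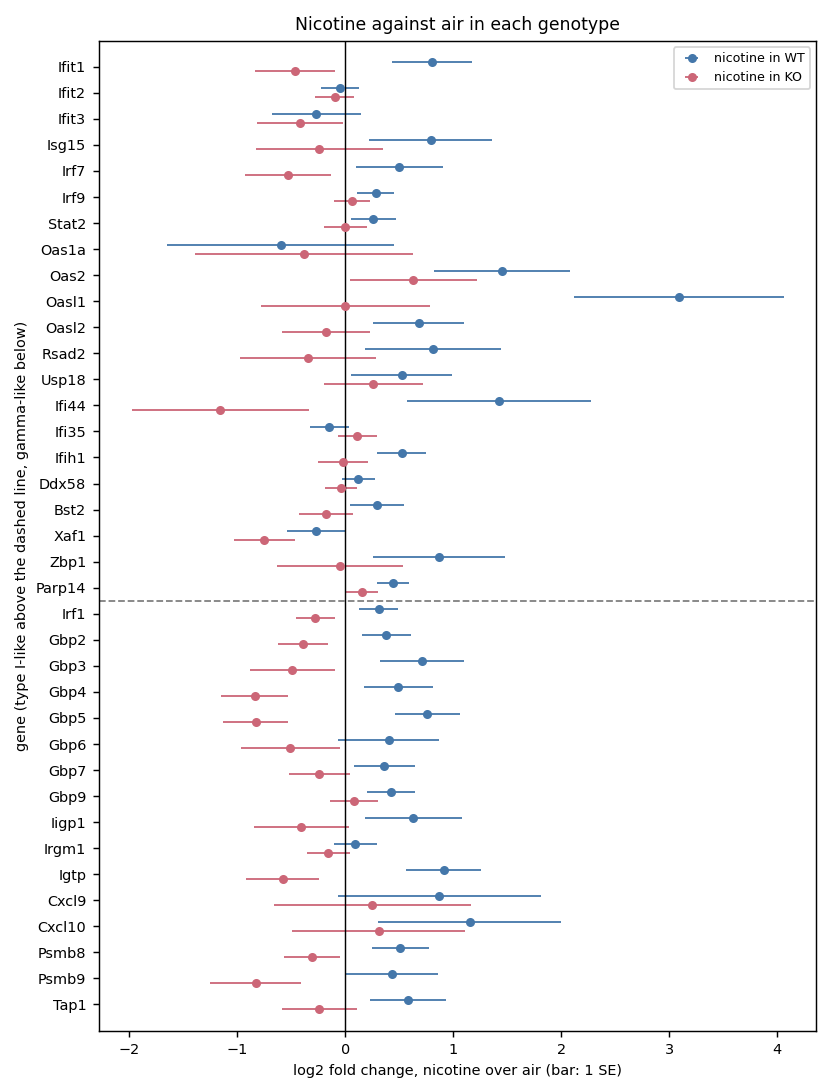
Log2 fold change of nicotine over air for each gene in WT (blue) and KO (red), with a bar of 1 SE. Gamma-like genes below the dashed line lie right of 0 in WT (median 0.50) and mostly left of 0 in KO (median -0.35), and no gene passed the threshold in either.

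The authors' deposited tables of nicotine against air list 123 genes with an adjusted p under 0.05 in WT and 7 in KO, and none of the 37 genes is among them. In the authors' deposited table for WT the lowest adjusted p of these genes was 0.287, for Oasl1. In the authors' deposited table for KO it was 0.494, for Gbp4.

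The difference between the nicotine effects of the genotypes was tested as an interaction (KO minus WT). All 16 gamma-like and 19 of 21 type I-like genes were below 0, with medians of -0.83 and -0.48, where 52.9% of all tested genes were above 0 with a median of 0.02. None passed by edgeR, as in all genes (0%), and 6 gamma-like and 3 type I-like genes had an unadjusted p under 0.05, all below 0, where 4.43% of all tested genes reached it. DESeq2 called 0 of the 37 (0.0616% of all genes), with 11 at an unadjusted p under 0.05 (4.84% of all genes), and limma voom called 0 (0%), with 7 at that level (4.3%). The genes share libraries and vary together, so their common direction is no count of independent results.

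The interaction was -1.58 ± 0.42 for Gbp5 (95% interval -2.50 to -0.67, edgeR adjusted p = 0.999), -1.49 ± 0.49 for Igtp and -1.33 ± 0.45 for Gbp4. Gbp2 (-0.76 ± 0.33), Irf1 (-0.59 ± 0.26) and Psmb8 (-0.82 ± 0.37) completed the 6. Of the type I-like genes, Oasl1 was at -3.09 ± 1.21, Ifit1 at -1.27 ± 0.52 and Ifi44 at -2.58 ± 1.18. At the other end, Ifit2 (-0.04 ± 0.25) was close to 0, and Oas1a (0.21 ± 1.44) and Ifi35 (0.26 ± 0.26) were above it. Usp18 was at -0.26 ± 0.66, with a 95% interval of -1.69 to 1.16 that leaves its direction undecided. Without KO nicotine 4 the gamma-like median became -1.30, and without WT nicotine 6 the type I-like median became -0.27. Macrophage (8 of 10), neutrophil (4 of 4), T or NK cell (5 of 5), B cell (4 of 4) and fibroblast markers (6 of 6) were below 0 in the interaction as well, and skeletal muscle markers (5 of 5) were above it. Their part was not tested.

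Averaged over the genotypes, the nicotine effect was small in both sets, with medians of 0.16 for type I-like and 0.08 for gamma-like genes against 0.01 for all tested genes. None of the 37 passed by edgeR, as in all genes (0%). Parp14 (0.30 ± 0.10), Xaf1 (-0.51 ± 0.19), Oasl1 (1.54 ± 0.61) and Oas2 (1.04 ± 0.43) had an unadjusted p under 0.05, where 10.9% of all tested genes reached it. DESeq2 called 0 of the 37 (0.657% of all genes), with 4 at that level (11.7%), and limma voom called 0 (0%), with 3 (11%). These shares of the members are near those of all genes. Xaf1 was the only one of the 4 below 0. Among gamma-like genes 0 reached that level, and the lowest unadjusted p was that of Gbp9 (0.25 ± 0.15), followed by Cxcl10 (0.73 ± 0.58) and Cxcl9 (0.56 ± 0.66). The medians ran from 0.02 without WT nicotine 6 to 0.24 without KO nicotine 5 for type I-like genes, and from -0.04 without WT nicotine 11 to 0.20 without WT nicotine 12 for gamma-like genes. In this average, macrophage markers were above 0 in 9 of 10 (7 with an unadjusted p under 0.05), smooth muscle markers below 0 in 6 of 6 (5 at that level), and skeletal muscle markers above 0 in 4 of 5 (4 at that level). Their part was not tested.

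KO was then compared with WT within each exposure. The comparison in air uses the same KO air libraries as nicotine in KO, and the same WT air libraries as nicotine in WT. The interaction uses both, so these comparisons are linked and are not separate results. In air, all 16 gamma-like genes were higher in KO by value, with a median log2 fold change of 0.75 (range 0.41 to 1.58) where the median of all tested genes was 0. Of the type I-like genes 19 of 21 were above 0, with a median of 0.36. None passed by edgeR, as in all genes (0%). At an unadjusted p under 0.05 there were 9 of 16 gamma-like genes and 1 of 21 type I-like genes, all higher in KO, where 4.36% of all tested genes reached it. Each KO library lay above each WT library in 8 of 16 gamma-like genes and 3 of 21 type I-like genes, and lay below in 0, where 5.74% and 6.07% of all genes did so. DESeq2 called 1 of the 37 (Gbp4), beside 13 or 0.089% of all genes, with 13 of the 37 at an unadjusted p under 0.05 (4.96% of all genes). Limma voom called 0 (0%), with 10 at that level (4.47%). The members were chosen with earlier results of these data known, and they vary together. These shares are therefore no test of the set.

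Gbp4 had the lowest p of these genes. Against 10.9, 6.83 and 8.46 CPM in WT air, it stood at 17.4, 31.9 and 28.9 CPM in KO air, 8.72 ± 2.03 against 26.1 ± 7.65 (SD, n = 3 each). The 2.99-fold difference (log2 1.58 ± 0.32, 95% interval 0.88 to 2.28) had an edgeR adjusted p of 0.711 and a DESeq2 adjusted p of 0.0112. Over the alternatives its adjusted p ran from 0.0112 to 1. Leaving out any single library kept the Gbp4 log2 fold change between 1.41 and 1.81. Gbp5 stood at 10.1 ± 2.64 in WT air and 22.6 ± 7.06 CPM in KO air, also without overlap (1.16 ± 0.30, edgeR adjusted p = 0.866). Igtp was at 6.27 ± 0.637 and 12.7 ± 3.81 CPM (1.02 ± 0.35), and Psmb8 at 8.56 ± 1.80 and 14.1 ± 3.03 CPM (0.72 ± 0.26). Irf1 was at 21.9 ± 3.22 and 30.7 ± 2.20 CPM (0.48 ± 0.18), the 3 KO libraries lying between 29.2 and 33.2 CPM.

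Psmb9 stood at 4.26, 3.79 and 3.22 CPM in WT air and 6.54, 5.98 and 10.8 CPM in KO air (1.05 ± 0.42), and Gbp9 (0.49 ± 0.22) and Gbp3 (0.74 ± 0.39) did not overlap either. The other 8 gamma-like genes overlapped. Gbp2 was at 34.5, 28.6 and 28.8 CPM in WT air and 32.3, 58.6 and 49.1 CPM in KO air 1, 2 and 7. KO air 1 stood inside the WT range for Gbp2, as it did for Iigp1, Gbp7, Tap1, Irgm1 and Gbp6, while KO air 2 and 7 were above it. For Cxcl9, KO air 1 was the lowest of the 12 libraries at 0.510 CPM, beside 5.72 and 5.52 CPM in KO air 2 and 7. The gamma-like median of 0.75 ran from 0.55 (without KO air 7) to 1 (without WT air 8), and the type I-like median of 0.36 was 0.23 without WT air 10.

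Of the type I-like genes, Oasl1 stood apart in air with 1.70, 1.71 and 1.07 CPM in KO libraries, again against 4 counts in WT air (3.63 ± 0.95, edgeR adjusted p = 0.866). Zbp1, a sensor of Z-form nucleic acid that triggers cell death (1.24 ± 0.61), and Ifi44 (1.66 ± 0.84) did not overlap between genotypes either. Isg15 (-0.16 ± 0.58) and Rsad2 (0.01 ± 0.63) were near 0, with 95% intervals of -1.42 to 1.11 and -1.41 to 1.42 that leave differences of 2-fold and more undecided.

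The macrophage sum was 371 to 567 CPM in KO air against 420 to 459 CPM in WT air, and 7 of 10 of these markers were above 0. The 9 T or NK cell markers summed to 5.55 to 10.6 CPM in KO air and 5.35 to 7.74 CPM in WT air, and all 5 that were tested were above 0. The 6 adipocyte markers summed to 1920 to 4020 CPM in KO air and 773 to 3670 CPM in WT air, all 6 above 0 and none at 0 counts. Fibroblast (6 of 6), B cell (4 of 4), endothelial (6 of 7) and dendritic cell markers (5 of 6) were above 0 as well. Smooth muscle (6 of 6) and skeletal muscle markers (4 of 5) were below 0, and neutrophil markers were split (2 of 4 above). Of all tested genes 50.2% were above 0. Among these lists 2 macrophage markers and 1 endothelial marker had an unadjusted p under 0.05, where 4.36% of all tested genes reached it. Of the T or NK cell markers, Nkg7, Klrb1c and Ncr1 were at 0 in 1, 2 and 3 of the 12 libraries. The part of these cell types in the result was not tested. Within each exposure, every KO library carries a lower number in its label than every WT library. The meaning of these numbers was not given, and an effect tied to them cannot be told apart from genotype.

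Under nicotine the genotypes did not stand apart in this way. The gamma-like median was -0.09 and the type I-like median -0.11, against 0.01 for all tested genes. None of the 37 passed by edgeR, where 1 of 14621 genes did (0.00684%), and 0 had an unadjusted p under 0.05, where 8.34% of all tested genes reached it. By DESeq2 0 were called (0.595% of all genes), with 1 at an unadjusted p under 0.05 (8.97%), and by limma voom 0 (0.00684%), with 0 at that level (7.09%). In 0 of the 37 did the groups separate, where 5.78% of all genes lay wholly above and 5.62% wholly below. Isg15 was at -1.19 ± 0.58 and Rsad2 at -1.15 ± 0.64, and without WT nicotine 6 they were at -0.48 and -0.14. Without KO nicotine 4 the gamma-like median was -0.33 and without KO nicotine 5 it was 0.09, while the type I-like median was -0.22 without WT nicotine 12 and 0.04 without WT nicotine 6. All 4 neutrophil markers were below 0 with an unadjusted p under 0.05 (8.88 to 57.0 CPM in WT and 3.14 to 7.49 CPM in KO), and their part was not tested. The next type I-like gene by p was Ifit1 (-0.60 ± 0.37). Gbp5 was at -0.42 ± 0.30, Igtp at -0.47 ± 0.34, Gbp3 at -0.45 ± 0.39 and Gbp4 at 0.25 ± 0.32. The change in the genotype effect between air and nicotine is the interaction given above, in which no gene passed.

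**Figure D5:**
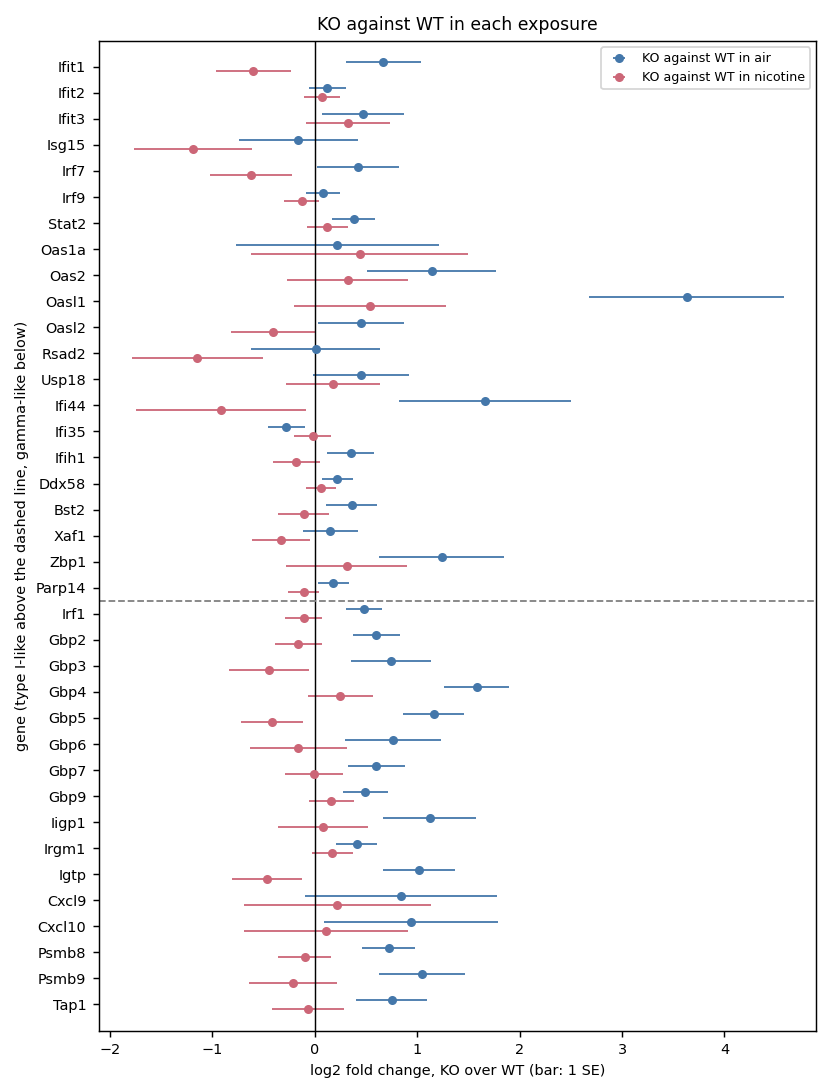
Log2 fold change of KO over WT for each gene in air (blue) and in nicotine (red), with a bar of 1 SE. All 16 gamma-like genes lie right of 0 in air (0.41 to 1.58), and in nicotine they lie between -0.47 and 0.25.

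The rest of the pathway was read from lists of ligands, receptors, sensors and further targets. Ligand transcripts were all but missing. Ifng and Ifnb1 had at most 1 count in any library, and of 17 ligand and inducer genes only Il15 (0.27 ± 0.33 in WT nicotine) and Il18 (-0.77 ± 0.69) could be tested. At this depth the other ligands cannot be compared between groups. Of the receptor and signalling genes none passed by edgeR in any comparison. The receptor genes Ifnar1 (0.15 ± 0.11) and Ifngr1 (0.23 ± 0.12) had small values in WT nicotine, and -0.02 ± 0.12 was that of Ifngr1 for KO against WT in air. Irf8, a myeloid factor, was at 4.09, 5.60 and 4.27 CPM in WT air and 10.8, 10.1 and 6.85 CPM in WT nicotine (0.99 ± 0.31, edgeR adjusted p = 0.345), and the kinase gene Jak1 was at 0.24 ± 0.10. Nlrc5, the activator of class I genes, was at 0.74 ± 0.33 there and 0.94 ± 0.33 for KO against WT in air. These genes do not stand for the list. Of 23 tested receptor and signalling genes, 14 were above 0 and 9 below in WT nicotine, with a median of 0.15. There 3 had an unadjusted p under 0.05, all higher, where 9.84% of all tested genes reached it. For KO against WT in air the median was 0.05, with 14 above 0 and 9 below.

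Of 15 tested sensor and adaptor genes 0 passed by edgeR in any comparison. In WT, 6 of 15 had an unadjusted p under 0.05 with nicotine, all higher, where 9.84% of all tested genes reached it. They were led by the RNA sensor Tlr7 (1.51 ± 0.37, edgeR adjusted p = 0.238), the DNA-sensing adaptor Tmem173 (0.83 ± 0.23) and Unc93b1, the chaperone of endosomal Toll-like receptors (0.63 ± 0.20). Tlr7 was highest in WT nicotine 12, at 7.91 CPM, a library that was low for the gamma-like genes. Unc93b1 stood at 24.1, 21.7 and 22 CPM in WT air and at 42.9, 37.4 and 25 CPM in WT nicotine. In KO it stood at 33.9, 33.4 and 48.9 CPM in air and 24, 26.5 and 28.4 CPM in nicotine. The groups did not overlap in either genotype, where 7.12% of all genes lay wholly above in WT and 5.53% wholly below in KO. Unc93b1 was named for its low p, and the overlap of the other sensor genes is not given here. The Unc93b1 interaction was -1.19 ± 0.28 (edgeR adjusted p = 0.922). Among 45 further interferon-stimulated genes none passed by edgeR, and Ifi204, a member of the DNA-binding p200 family, had the lowest p in WT nicotine (1.48 ± 0.33, edgeR adjusted p = 0.194). Ifi204 too was highest in WT nicotine 12, at 24.5 CPM. Slfn2 (1.24 ± 0.30) and Slfn5 (0.59 ± 0.17), of the Schlafen family, came next.

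Of 18 further gamma-like genes the adhesion genes Vcam1 (0.63 ± 0.17) and Icam1 (0.72 ± 0.22) had the lowest p in WT nicotine, followed by the GTPase gene Tgtp2 (1.09 ± 0.55), none past the threshold. For KO against WT in air the lowest p belonged to Gbp8 (1.5 ± 0.6), Tgtp2 (1.31 ± 0.55) and Gm4951 (1.29 ± 0.55). Like many of the members, these are GTPase genes. They do not stand for the list. Over the 18 genes the median for KO against WT in air was 0.23, with 13 above 0 and 5 below. The median of the 16 gamma-like members was 0.75. By edgeR 4 of the 18 had an unadjusted p under 0.05, all higher in KO, where 4.36% of all tested genes reached it. None of the 18 passed the threshold. Class I genes had a median of 0.27 in WT nicotine, -0.15 in KO nicotine and 0.31 for KO against WT in air, over 19 genes. H2-Q4 (0.77 ± 0.28), H2-T23 (0.64 ± 0.25) and H2-K1 (0.62 ± 0.25) led in WT nicotine. In unscaled counts, WT nicotine 6 and 11 exceeded every WT air library for H2-Q4 (325 and 567 against 217 to 241). They also did so for H2-T23 (457 and 431 against 217 to 278). WT nicotine 12 did not, at 228 and 231. Sequence that the H2 genes share with other genes was not measured.

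Some of these genes share sequence, and the way reads in common were counted is not given in the sources used here. Of the 50-base words in each gene's longest protein-coding transcript (GENCODE M21), 90.2% of those of Gbp6 also occur in Gm43302, 57.6% of those of Oas1a in Oas1g and 51.2% of those of Ifit3 in Ifit3b. The counts of these 3 genes are therefore uncertain. The share with any other gene was 12.8% for Gbp4, 12.8% for Gbp7, 12.3% for Igtp and 0.898% for Gbp5, and 0% for Rsad2, Stat2, Irf7, Irf1 and Psmb8.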

How the data were processed

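RNA from the aortas was, per the labels, isolated with the RNeasy Plus kit and made into SMART-Seq v4 libraries. HTSeq and build mm9 appear in the submitters' processing notes. The authors deposited a count table of unscaled whole-number read counts by gene symbol. Aligner, annotation and strand setting: not given in the sources used here. Per the file headers, the authors' deposited tables of nicotine against air give a log2 fold change with an error, a test score, and p-values, and the program behind them is not named.

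Genes passing filterByExpr were tested with edgeR 4.0.16 (R 4.3.3), with TMM scaling (factors 0.962 to 1.05) and a robust quasi-likelihood fit of 4 group means with 8 residual degrees of freedom. P-values were Benjamini-Hochberg adjusted over 14621 genes, and genes under 0.05 were called. Standard errors were obtained by dividing each log2 fold change, without its sign, by the root of its F statistic. CPM use library totals times TMM factors. Mean levels use log2 CPM with a prior count of 2. Pairs of libraries within a group differed by a chi-square per degree of freedom of 8.79 to 74.8, so no pair agreed within sampling noise. In simulated counts for nicotine in WT (14381 genes), 50 of 100 genes given a 2-fold change were called. Of 100 given a 4-fold change 84 were called, and 5 calls were false. The changed genes were drawn from all tested genes, and counts were simulated independently for each gene. The 37 members had a larger median SE (0.35 against 0.22 over all tested genes) and vary together, so these rates do not carry over to them.

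The members and lists were chosen with earlier results of these data known. Per comparison and set, the 3 genes of lowest p were named, with a fixed set of 17 genes, up to 3 of lowest p from each other list in WT nicotine, and Ifngr1, Ifnar1, Ifng and Ifnb1. Of these, 1 gene outside the member list is not reported here. Further genes were named after their values were seen: those whose groups did not overlap, the other members given with a value, and Gbp8 and Gm4951, which lie outside the member list. Alternatives were DESeq2 1.42.0, limma voom 3.58.1, other size factors and filters, no robust fit, only the groups compared, and leaving out each library.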

Additional observations from a re-analysis of the deposited data

How the results depend on the processing

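No paired analysis was possible because the groups share no library number. Alternatives for single genes in the KO against WT comparisons and in the average were chosen after seeing the data. With 3 libraries a group and 8 residual degrees of freedom, the median SE of the 37 genes, 0.35 for nicotine in WT and 0.50 for the interaction (0.22 and 0.31 over all tested genes), limits what could be called. The 37 genes kept 0 calls under every alternative except DESeq2 in air, which called 1 (Gbp4). Among all genes, for nicotine in WT (3 called) the count was 7 with RLE size factors, 115 by DESeq2, 21 without the filter, 0 with only the groups compared, and 0 (without WT air 9) to 34 (without WT air 8) leaving out a library. For the average (0 called) it was 96 by DESeq2, 6 without the filter and 0 to 38. For the interaction (0 called) it was 9 by DESeq2, 1 without the filter and 0 to 1. For KO against WT in air (0 called) it was 13 by DESeq2, 2 with only the groups compared and 0 leaving out any library, and in nicotine (1 called) it was 6 with RLE size factors, 87 by DESeq2, 7 without the filter and 0 to 4. The gamma-like interaction median ran from -1.30 to -0.68 leaving out a library. Log2 fold changes whose sign turned were, by limma voom, Oas1a for nicotine in KO (0.06) and for KO against WT in air (-0.41). Leaving out a library gave the following ranges. For nicotine in WT they were -0.04 to 0.78 (Irf7), -1.94 to 0.01 (Oas1a) and -0.19 to 1.28 (Rsad2). For nicotine in KO they were -0.06 to 0.23 (Gbp9), -0.67 to 0.62 (Cxcl9), -0.23 to 0.74 (Cxcl10), -1.28 to 0.54 (Oas1a), -0.40 to 0.40 (Zbp1), -0.53 to 0.03 (Tap1) and -0.05 to 0.40 (Usp18). For the interaction they were -0.54 to 0.13 (Ifit3), -0.65 to 0.07 (Usp18), -1.99 to 0.02 (Cxcl9) and -0.68 to 1.56 (Oas1a). For KO against WT in air they were -0.52 to 0.46 (Isg15), -0.27 to 0.33 (Rsad2) and -0.69 to 0.76 (Oas1a). None of these genes passed the threshold in any of these fits, and the cause was not tested.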
